A study of Mus musculus with 22 samples.

Results

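Genes of autophagy and the lysosome, 36 in number, were followed across mouse duodenal organoids exposed to cold atmospheric plasma (CAP), an ionised helium gas that leaves reactive oxygen and nitrogen species in the culture medium. The 36 genes were chosen by name, with earlier results of these data known. Each matched exactly 1 of the 52636 genes in the deposited expression table. All 36 passed the filter on low values in each comparison, a value of at least 10 in at least 3 libraries. The organoids grew from adult wild type mice of the CD1 outbred strain, and each of the 4 organoid lines came from 1 mouse. The untreated group held 4 bulk RNA-seq libraries, from lines CD1, WT2, 1-20 and 2-20. By the labels, CD1 was at passage 12, WT2 at passage 14, and 1-20 and 2-20 at passage 4. In the paper's list of lines, those of this experiment at passage 12 and 14 came from male mice. The others came from female mice and are listed at a lower passage than the labels give. The mix of passages and sexes therefore differs between untreated and treated groups, and neither can be told apart from line. Each of the 6 treated groups held 3 libraries, from lines CD1, WT2 and 2-20, and no treated library came from line 1-20.

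For direct CAP, organoid cultures received the plasma themselves and got fresh medium after 30 min or after 24 h. Indirect CAP meant medium taken from another, treated culture, and plasma-activated medium (PAM) had been treated with no organoids present. Indirect CAP and PAM were given for 24 h starting at day 1 or at day 2 after replating, as the study's methods describe them, whereas the sample labels mark the same groups as 30 min and 24 h. In the paper's design, media given from day 1 were replaced by fresh medium until the endpoint. Media given from day 2 had been made at day 1 and stayed on until the endpoint. The names "from day 1" and "from day 2" are used for them throughout. Every comparison with untreated organoids used the same 4 untreated libraries, so these comparisons are not independent of each other.

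Autophagy encloses cell material in a double membrane, the phagophore, which closes into an autophagosome and fuses with the lysosome. A kinase complex and a lipid kinase complex start the membrane, the ATG conjugation enzymes attach proteins of the ATG8 family to it, and cargo receptors tie the material to ATG8. The lysosome then digests the content with acid hydrolases, at a pH kept low by a proton pump. Transcription factors of the MiT/TFE family, Tfeb and Tfe3 among them, activate many of these genes through the CLEAR element, a palindrome centred on an E-box. In the small intestine, Paneth cells need autophagy genes for the normal release of their granules.

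The E-box CACGTG and the longer palindrome TCACGTGA, which contains it and forms the centre of the CLEAR element, were searched on both strands of RefSeq promoter windows, from 250 bases before to 50 bases after each start site (build GRCm38.p6). A window was found for 29 of the 36 genes. Of these, 10 (34.5%) held CACGTG, against 8.09% of all 27025 gene symbols with a window (7.15% of the 32851 windows). The longer TCACGTGA was held by 6 (20.7%), against 1.12% of symbols and 0.974% of windows. The 6 were Atg3, Atp6v0d1, Ctsa, Ctsd, Gla and Mcoln1. The stretches with these letters are printed 5′ to 3′ on the strand of the gene, together with that of Lamp1, which held 4 E-boxes. The window of Ctsa held another TCACGTGA, 5 bases into the transcript, and those of Mcoln1 and Ctsd another CACGTG each, 71 and 245 bases before the start site, which are not printed. Capitals mark CACGTG, or all 8 letters of TCACGTGA where they are present.
Lamp1: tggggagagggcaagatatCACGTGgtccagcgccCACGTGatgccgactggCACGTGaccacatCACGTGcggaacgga
Mcoln1: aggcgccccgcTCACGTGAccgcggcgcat
Atp6v0d1: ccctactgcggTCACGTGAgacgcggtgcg
Ctsa: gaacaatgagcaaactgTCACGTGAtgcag
Ctsd: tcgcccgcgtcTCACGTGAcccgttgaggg
Gla: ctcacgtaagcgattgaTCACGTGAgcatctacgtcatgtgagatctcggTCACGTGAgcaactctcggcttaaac
Atg3: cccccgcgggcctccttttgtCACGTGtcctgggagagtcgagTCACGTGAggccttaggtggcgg

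These stretches lie at chr8:13159081-13159160 (Lamp1, plus strand), chr8:3500462-3500491 (Mcoln1, plus), chr8:105566050-105566079 (Atp6v0d1, minus), chr2:164833743-164833772 (Ctsa, plus), chr7:142387908-142387937 (Ctsd, minus), chrX:134601175-134601250 (Gla, minus) and chr16:45158714-45158779 (Atg3, plus). The 4 E-boxes of Lamp1 start 61, 45, 28 and 15 bases before the start site. The stretches of Mcoln1, Ctsd and Ctsa fall within an exon of the GENCODE vM21 annotation, and the other 4 lie outside any exon.

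Sqstm1 and Atg9b, whose values are described in full below, held neither word. Their windows upstream of the start site are shown for comparison, all in lower case because nothing in them is marked, from chr11:50210828-50211070 (Sqstm1, minus strand) and chr5:24392144-24392393 (Atg9b, minus strand).
Sqstm1: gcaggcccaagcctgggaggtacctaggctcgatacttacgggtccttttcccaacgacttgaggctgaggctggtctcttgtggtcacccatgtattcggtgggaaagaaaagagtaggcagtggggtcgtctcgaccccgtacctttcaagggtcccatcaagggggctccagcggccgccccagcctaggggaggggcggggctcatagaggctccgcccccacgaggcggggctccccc
Atg9b: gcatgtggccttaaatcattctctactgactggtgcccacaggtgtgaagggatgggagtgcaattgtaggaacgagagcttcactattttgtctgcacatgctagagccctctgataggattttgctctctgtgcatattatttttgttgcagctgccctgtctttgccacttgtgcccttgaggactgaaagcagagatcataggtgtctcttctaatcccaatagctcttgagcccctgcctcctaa

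Other motifs were searched in the same windows, also on both strands. The AP-1 site TGACTCA was found in 1 of the 29 (Neu1), against 5.95% of all symbols. The antioxidant response core TGACNNNGC was found in 4 (Atg13, Ctsd, Hexa and Map1lc3b), against 14.0%, and the ATF4 word TGATGNAA in 2 (Atp6v0d1 and Ctsl), against 4.51%. A match is a run of letters and not evidence of binding, and a missing match describes these windows only.

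Values were read counts scaled to a common total per library, without division by transcript length, and are called values below. The 22 library totals lay between 20007540 and 20016513. An estimated 19.38 to 28.68 M reads per library (median 22.8 M) had been counted on genes. Fibroblast markers summed to 2 to 17 per library and endothelial markers to 2 to 28. The 7 macrophage and leukocyte markers summed to 350 to 501. Of these, Csf1r reached 334, Lyz2 191 and Cd68 86, against at most 12 for Ptprc, which marks all leukocytes, and at most 5 for Adgre1, C1qa and C1qb. Cd68, itself a protein of lysosomes, was higher over the 9 libraries of the main comparison described below (log2 1.35, limma adjusted p = 0.000427), and its part in the results was not tested. The enterocyte marker Alpi reached 95329 and the stem cell marker Olfm4 25431, so the libraries carried the markers of the epithelium they are labelled as.

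The line labels of the untreated libraries did not all match the treated ones. Deviations from the group mean correlated between treated libraries of the same line (median r over all genes tested 0.564, 45 of 45 pairs above 0.1). The untreated library of line 2-20 correlated likewise with treated 2-20 (median 0.597). The untreated library labelled CD1, however, correlated with treated WT2 (0.541) more than with treated CD1 (0.0751), and the one labelled WT2 more with treated CD1 (0.353) than with treated WT2 (0.132). A fit with organoid line as a block, used below as an alternative, takes the lines as labelled, so in comparisons with untreated it rests on labels that may be exchanged for these 2 libraries. All libraries were kept in the groups their labels give, and counts without these 2 libraries are given beside the main ones.

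Among the untreated libraries, levels per kilobase of transcript differed widely between the 36 genes. The lysosomal membrane protein Lamp1 had the highest mean level (4525 per kb), followed by the protease cathepsin D (Ctsd, 3886), the ATG8 protein Gabarap (1565), cathepsin B (Ctsb, 1463) and the cargo receptor Sqstm1 (1155). Lamp1 and Ctsd were neighbours in this order whose library ranges overlapped, 3868 to 4882 against 3256 to 4195. At the other end stood the calcium channel Mcoln1 (68.0 per kb) and the transcription factors Tfeb (68.4) and Tfe3 (76.7). The length used was that of all annotated exons of a gene merged, in GENCODE vM21, so these levels are approximate.

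**Figure D1:**
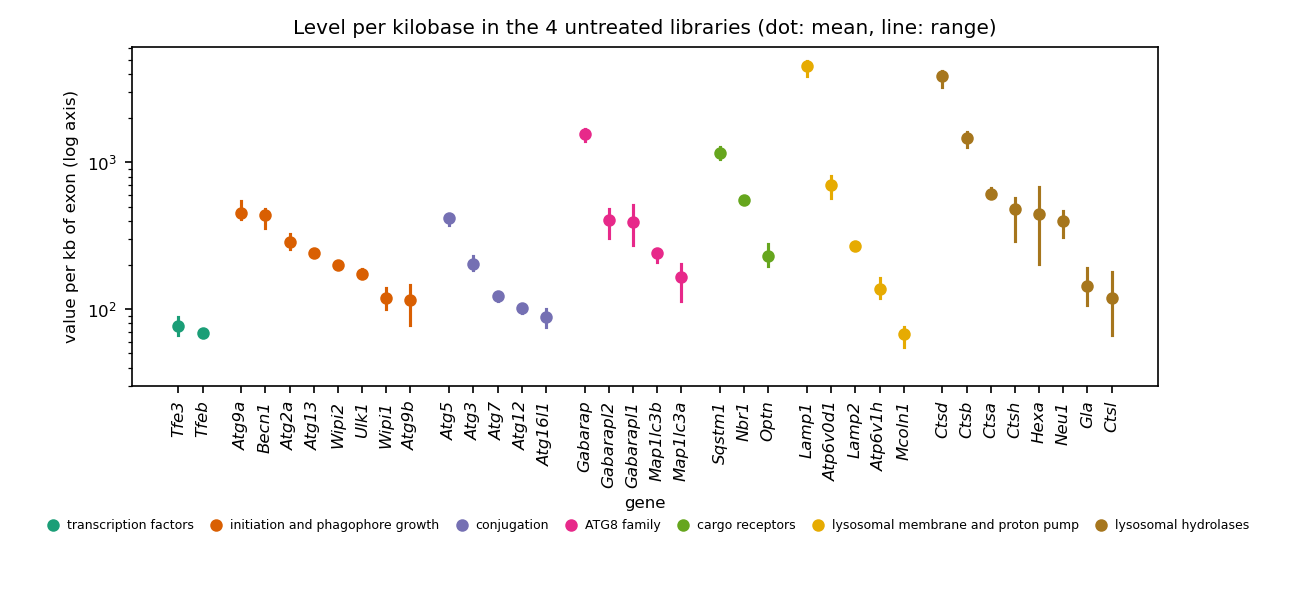
Level of each of the 36 genes in untreated organoids, in value per kilobase on a log axis, with a dot for the mean of 4 libraries and a line for their range. Lamp1 and Ctsd stand highest at 4525 and 3886 per kb, and Mcoln1, Tfeb and Tfe3 lowest at 68.0 to 76.7.

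The main comparison asked how organoids that spent 24 h with plasma-treated medium from day 1, however that medium was made, differed from untreated ones, and set 9 libraries (PAM and indirect CAP from day 1, and direct CAP for 24 h) against 4. Of the 36 genes, 12 were higher (Atg9b, Ctsl, Neu1, Ctsd, Ctsb, Sqstm1, Mcoln1, Atp6v0d1, Optn, Ctsa, Atg2a and Lamp1) and 3 lower (Wipi1, Tfeb and Ulk1) at an adjusted p under 0.05 by limma. Over all genes tested, 14.8% were higher and 18.7% lower. The median log2 fold change was 0.20 for the 36 genes and −0.05 for all genes. At the study's stricter limit, an adjusted p under 0.01 with a log2 change of at least 1, 2 of the 36 passed (Atg9b and Ctsl), against 6.34% of all genes. The 9 treated libraries came from 3 mice, 3 libraries per line, and were fitted as separate libraries although those of a line resemble each other. With organoid line as a block, 12 were higher and 2 lower, against 16.2% and 15.8% of all genes, with Ulk1 and Atg2a lost and Tfe3 gained. Without the untreated libraries of CD1 and WT2, 9 of the 36 were called in place of 15, against 10.3% of all genes. The call of Optn was lost when the untreated library of CD1, WT2 or 2-20 or the PAM library of 2-20 was left out (0.45 to 0.53 against 0.53 with all).

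The 6 treated groups were also compared with untreated organoids one at a time. With direct CAP for 30 min, limma called none of the 36 genes in either direction, where 0.00564% of all genes were higher and 0 lower. Of the 36, 4 had an unadjusted p under 0.05, as did 4415 of all 17731 genes tested. When all 7 groups shared 1 fit, 1 of the 36 was called (0.356% of all genes). With direct CAP for 24 h, 9 of the 36 were higher and 2 lower, against 7.05% and 10.2% of all genes. Leaving out the untreated libraries of CD1 and WT2 left 1 call in place of 11 (1.53% of all genes called), and leaving out the CD1 library alone left 7 (9.98%).

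Indirect CAP from day 1 gave 8 higher and 1 lower of the 36, against 10.2% and 10.4% of all genes. The count was 1 without both untreated libraries of CD1 and WT2 (2.91% of all genes called), 5 without that of WT2 alone (10.5%) and 3 without the treated library of line 2-20 (8.79%). Indirect CAP from day 2 gave 17 higher and 4 lower, against 20.3% and 23.5% of all genes. PAM from day 1 gave 16 higher and 3 lower, against 15.2% and 26.6%, and 12 calls in place of 19 without the untreated CD1 and WT2 libraries, where 26.6% of all genes were called. PAM from day 2 gave 18 higher and 5 lower, against 18.5% and 29.1%, and 14 calls in place of 23 without them, where 25.1% were called.

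Across the 6 groups, 21 of the 36 genes were higher in at least 1 group, 6 were lower in at least 1 (Tfeb, Ulk1, Wipi1, Atg5, Atg7 and Map1lc3b), and no gene was called in both directions. Of all 16886 genes tested in each of the 6 comparisons, 26% were higher in at least 1 group and 38.5% lower in at least 1. Atg9b, Sqstm1, Mcoln1, Ctsa, Ctsb, Ctsd, Ctsl and Neu1 were higher in all 5 groups other than direct CAP for 30 min, and Wipi1 was lower in all 5. The share of all genes called in all 5 was not counted, and these groups share the same untreated libraries. No group called Atg13 (a partner of the Ulk1 kinase), Becn1 (a subunit of the lipid kinase complex), Wipi2, Atg9a, Atg3 and Atg16l1 (both of the conjugation machinery), Gabarapl1, Gabarapl2 or Hexa. In PAM from day 2, quantile normalization in place of the deposited scaling shifted the median change of all genes by 0.12 on the log2 scale. The share of calls that were higher, over all genes, then moved from 38.8% to 49.3%.

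**Figure D2:**
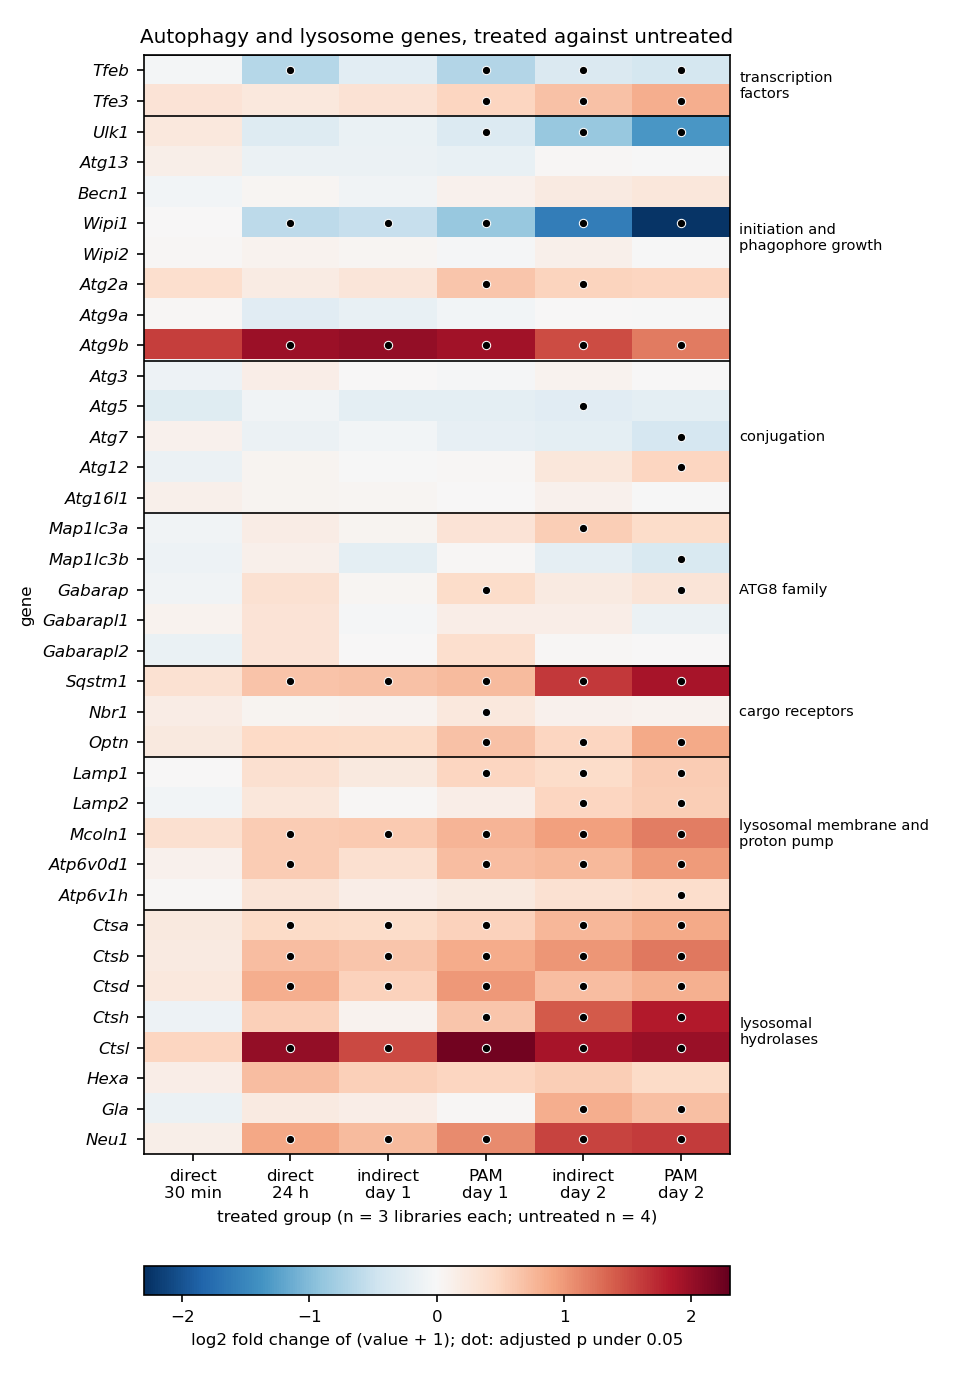
Log2 fold change of value + 1 for the 36 genes in the 6 treated groups (3 libraries each) against 4 untreated libraries, with red for higher, blue for lower and a dot at an adjusted p under 0.05. The direct 30 min column holds no dot, Atg9b and Ctsl are dark red in the other 5, and Wipi1 deepens from −0.53 with indirect CAP from day 1 to −2.26 with PAM from day 2.

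Markers of the epithelial cell types differed by group. The 6 stem cell markers summed to 53735 to 62838 in untreated libraries, 40628 to 55293 with direct CAP for 30 min, 20901 to 28845 with direct CAP for 24 h and 22590 to 34692 with indirect CAP from day 1. They summed to 18059 to 26042 with indirect CAP from day 2, 12712 to 15804 with PAM from day 1 and 9458 to 17297 with PAM from day 2. The 5 Paneth cell markers summed to 29440 to 39169 untreated, 4089 to 17653 with PAM from day 1 and 4771 to 20469 with PAM from day 2. Of these, Mmp7 had a mean of 445.5 untreated, 630 with indirect CAP from day 2 and 330 with PAM from day 2. Enteroendocrine markers summed to 1543 to 2865 untreated and 2904 to 4761 with PAM from day 2, where the mean of Chga was higher and that of Neurod1 lower. Tuft cell markers summed to 67 to 132 and 145 to 189, with Avil higher and Dclk1 lower. For the 6 goblet cell markers the sums were 79084 to 137596 untreated, 84867 to 192362 with PAM from day 1 and 19021 to 49056 with PAM from day 2. With direct CAP for 24 h and with PAM from day 1, 2 of the 6 were higher and none lower (limma), whereas with PAM from day 2 none was higher and 4 were lower. The 7 enterocyte markers summed to 110990 to 129268 untreated and to 150243 to 195308 with PAM from day 2, but 2 of the 7 were higher and 2 lower there, with a median log2 fold change of −0.02. Alpi rose from a mean of 26969 to 72337, and Fabp2 fell from 9890 to 3783. In bulk RNA, fewer cells of a type and less RNA per cell cannot be told apart, and the part of these shifts in the values of the 36 genes was not tested.

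The 2 transcription factors were called in opposite directions. Tfeb, the main activator of lysosomal genes, had values of 393, 367, 384 and 407 in the untreated libraries of lines CD1, WT2, 1-20 and 2-20. Direct CAP for 24 h gave 248, 309 and 193 (lines CD1, WT2 and 2-20, the order used for every treated group), indirect CAP from day 1 gave 348, 313 and 320, and 239, 229 and 257 were found with PAM from day 1. All 9 lay below all 4 untreated values, with a log2 difference of −0.53 (SE 0.14, limma adjusted p = 0.0109). This call was lost without the untreated libraries of CD1 and WT2, where the difference was −0.56. By group, Tfeb was lower with direct CAP for 24 h (−0.66), PAM from day 1 (−0.68) or day 2 (−0.41) and indirect CAP from day 2 (−0.32). The calls for direct CAP for 24 h and for both media from day 2 were lost with organoid line as a block (−0.66 for direct CAP, −0.33 for indirect CAP and −0.41 for PAM). They were also lost when any 1 untreated library was left out, or the treated library of 2-20, or that of CD1 with direct CAP and indirect CAP (−0.68 to −0.48, −0.36 to −0.24 and −0.43 to −0.26 in the same order).

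Tfe3, its close relative, had untreated values of 682, 616, 719 and 823. Indirect CAP from day 2 gave 1067, 1104 and 1233. PAM gave 962, 866 and 1202 when started at day 1 and 1070, 1225 and 1538 when started at day 2. None of these 9 overlapped with the untreated values, and Tfe3 was higher in each of these groups (0.68, 0.50 and 0.84 on the log2 scale, limma adjusted p = 0.00172, 0.0198 and 0.00302). The call for PAM from day 1 was lost without the untreated WT2 or the treated 2-20 library (0.37 and 0.44 at the extremes). Over the 9 libraries from day 1 the difference was 0.36 and was not called (limma adjusted p = 0.0519). It was called with organoid line as a block, where the difference was 0.37.

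Among the 8 genes of initiation and phagophore growth, large changes in both directions stood beside genes that were never called. The median log2 fold change of the 8 lay between −0.11 and 0.07 in the 5 groups other than direct CAP for 30 min. The gene with the highest fold change was Atg9b, one of a pair of scramblases that supply membrane to the phagophore. Its untreated values were 573, 406, 546 and 307. With direct CAP for 24 h they were 2656, 1484 and 1359, with indirect CAP from day 1 they were 1927, 1941 and 1608, and with PAM from day 1 they were 2410, 1667 and 1215. Every one of the 9 exceeded every untreated value, a 3.94-fold difference on the scale of value + 1 (log2 1.98, SE 0.21, limma adjusted p = 3.77e-05).

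The label of direct CAP for 30 min gives a duration of exposure, and its time of collection is not clear from the sources. In this group 5 members lay above the whole untreated range, Atg9b, Sqstm1, Ulk1, Atg13 and Nbr1. Below it lay 1, Atg5, at 763 to 855 against 885 to 1039 untreated. The share of all genes without overlap was not counted, and none of these members was called. For Atg9b the values were 997, 1509 and 1593. The log2 difference was 1.59 (95% interval 1.03 to 2.15) and was not called (limma adjusted p = 0.1), but was called when all 7 groups shared 1 fit. From day 2 the values were 1330, 1453 and 1028 with indirect CAP (2.82-fold above untreated) and 1186, 1249 and 701 with PAM (2.28-fold). Its paralogue Atg9a, the form found in most tissues, was called in no group.

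Wipi1, which binds the lipid PI3P on the phagophore, showed the opposite course. The untreated libraries held 617, 439, 495 and 567 and those of direct CAP for 30 min 451, 629 and 521, so these groups overlapped. Values were 315, 370 and 348 with direct CAP for 24 h, 343, 386 and 363 with indirect CAP from day 1 and 254, 280 and 336 with PAM from day 1. All 9 lay below the untreated range (log2 −0.67, SE 0.12, limma adjusted p = 0.00141). From day 2 they reached 190, 180 and 156 with indirect CAP (log2 −1.58, SE 0.14) and 148, 75 and 117 with PAM (log2 −2.26, SE 0.24), both past the study's stricter limit. The call for direct CAP for 24 h was lost with organoid line as a block (−0.64), and without the untreated CD1 or 2-20 or the treated CD1 library (−0.57 to −0.53). That for indirect CAP from day 1 was lost without the untreated 2-20 or the treated CD1 or 2-20 library (−0.53 to −0.49). Its relative Wipi2 was called in no group.

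Ulk1, the kinase that starts autophagy, had untreated values of 1163, 1066, 1061 and 1224. With direct CAP for 30 min they were 1310, 1330 and 1359, all above that range, although the difference of 0.24 on the log2 scale was not called (limma adjusted p = 0.123). With indirect CAP from day 2 they were 695, 660 and 517 (log2 −0.86, limma adjusted p = 0.000713) and with PAM from day 2 553, 434 and 373 (−1.33, limma adjusted p = 0.000434), all below it. Over the 9 libraries from day 1, at 746 to 1061, the difference was −0.26 (limma adjusted p = 0.0405). That call was made under 7 of 19 alternatives. It was lost with organoid line as a block (−0.29), and without any 1 of the untreated or PAM libraries (−0.29 to −0.22).

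Atg2a, a lipid transfer protein that feeds the phagophore, had untreated values of 1965, 2355, 2029 and 2495. PAM from day 1 gave 3763, 3106 and 3422, above all of them, and Atg2a was higher there (log2 0.64, limma adjusted p = 0.00262) and with indirect CAP from day 2 (3678, 2689 and 3130, log2 0.51). The second of these calls was lost with the block (0.47). Over the 9 libraries from day 1 the difference was 0.37 (limma adjusted p = 0.0442), called under 7 of 19 alternatives and lost with the block (0.33). That call was also lost without any 1 of 8 libraries, 3 untreated (CD1, WT2 and 1-20), 3 of PAM, CD1 of direct CAP and 2-20 of indirect CAP (0.32 to 0.40).

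Among the conjugation genes and the ATG8 family, Atg5, Atg7, Atg12, Map1lc3a and Map1lc3b were called in 1 group each and Gabarap in 2. Of all genes, 26% were higher in at least 1 group and 38.5% lower. In the 5 groups other than direct CAP for 30 min, the median log2 fold change lay between −0.03 and 0.08 for the conjugation genes. For the ATG8 family it lay between 0.00 and 0.32. Of the 5 conjugation genes, Atg5, which anchors the conjugation complex, was lower with indirect CAP from day 2, at 821, 805 and 830 against 885, 1039, 1008 and 1011 untreated (log2 −0.27, limma adjusted p = 0.0267), a call lost with organoid line as a block (−0.25) and without any 1 library other than untreated CD1 (−0.27 to −0.24). Atg7, the E1-like enzyme that activates ATG8 and ATG12, was lower with PAM from day 2, at 663, 595 and 706 against 919, 795, 819 and 879 (−0.38, limma adjusted p = 0.0175), which was lost without the untreated 2-20 or the treated WT2 library (−0.37 and −0.32 at the extremes). Atg12, the ubiquitin-like protein joined to Atg5, was higher with PAM from day 2, at 945, 1253 and 1146 against 724, 824, 827 and 764 (0.50, limma adjusted p = 0.0103). Each of these 3 calls separated the groups with no overlap.

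Map1lc3b, which encodes the LC3B protein used as the common marker of autophagosomes, had untreated values of 1582, 1843, 1869 and 1916. The 9 libraries from day 1 lay between 1456 and 2110 and overlapped with them. The difference was −0.03 on the log2 scale, with a 95% interval of −0.25 to 0.19 (limma adjusted p = 0.863). With PAM from day 2 the values were 1567, 1262 and 1392, below the untreated range, and Map1lc3b was lower (−0.36, SE 0.11, limma adjusted p = 0.0284). That call was lost with the block (−0.34), and without the untreated WT2, 1-20 or 2-20 or the treated WT2 or 2-20 library (−0.35 to −0.28). Its paralogue Map1lc3a was higher with indirect CAP from day 2, at 312, 253 and 284 against 135, 209, 197 and 240 (0.56, limma adjusted p = 0.047), lost with the block (0.57) and without any 1 library other than untreated 2-20 (0.39 to 0.64).

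Gabarap, of the other branch of the ATG8 family, had untreated values of 2570, 2862, 3004 and 3108. PAM gave 3561, 4033 and 4029 from day 1 (log2 0.43, limma adjusted p = 0.00652) and 3704, 3382 and 3496 from day 2 (0.29, limma adjusted p = 0.0327), all above the untreated values. The call from day 2 was lost with the block (0.31), and without the untreated CD1, WT2 or 1-20 or the treated CD1 library (0.24 to 0.31). Gabarapl1 and Gabarapl2 were called in no group, although with the block Gabarapl2 was higher with PAM from day 1 (0.43). Their untreated libraries ranged from 553 to 1030 and from 711 to 1111.

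Of the 3 cargo receptors, Sqstm1 changed most. It encodes p62, which carries ubiquitinated material to the autophagosome and is itself degraded there. Values in untreated organoids were 3514, 3841, 3893 and 4261. Direct CAP for 24 h gave 5141, 6845 and 6519, indirect CAP from day 1 gave 5239, 6663 and 6704, and 4893, 6867 and 7814 were reached with PAM from day 1. All 9 were above the untreated range, a log2 difference of 0.69 (SE 0.12, limma adjusted p = 0.00102).

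From day 2 Sqstm1 stood far higher, at 8910, 14130 and 13418 with indirect CAP and 10771, 16603 and 16757 with PAM. These were 3.08-fold and 3.73-fold above untreated (log2 1.62 and 1.90, SE 0.16 for each, limma adjusted p = 0.000162 and 0.000321). With direct CAP for 30 min the values of 4332, 4499 and 6225 also exceeded every untreated one, but the difference of 0.36 was not called (limma adjusted p = 0.155).

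Optn (optineurin), a receptor for damaged mitochondria and bacteria, had untreated values of 832, 737, 1041 and 867. It was higher with PAM from day 1 (966, 1727 and 1577, log2 0.68), indirect CAP from day 2 (995, 1439 and 1256, 0.50) and PAM from day 2 (1268, 1930 and 1597, 0.87, limma adjusted p = 0.00409). The last of these groups cleared the untreated range in all 3 libraries, and the others overlapped with it. Their 2 calls were lost without the untreated CD1, WT2 or 2-20 or the treated WT2 or 2-20 library (0.52 to 0.68 with PAM from day 1 and 0.37 to 0.50 with indirect CAP from day 2). Nbr1, another receptor for ubiquitinated cargo, was higher in 1 group, PAM from day 1, at 4493, 4807 and 4324 against 3824, 3813, 3826 and 3834 (0.25, limma adjusted p = 0.0203). This was lost with the block (0.25), and without the untreated 1-20 or 2-20 or the treated WT2 library (0.20 to 0.25).

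All 5 genes of the lysosomal membrane and its proton pump were higher in at least 1 group and none was lower. Of all genes, 26% were higher in at least 1 group and 38.5% lower. With PAM from day 2 all 5 were higher, against 18.5% of all genes, and their median log2 fold change was 0.58. Mcoln1, the calcium channel of the lysosome (TRPML1), had untreated values of 419, 517, 548 and 570. They were 739, 764 and 795 with direct CAP for 24 h, 696, 763 and 885 with indirect CAP from day 1 and 784, 881 and 971 with PAM from day 1. No value overlapped with the untreated ones (log2 0.66, SE 0.10, limma adjusted p = 0.000545). The call for indirect CAP from day 1 alone (0.61) was lost without its 2-20 library (0.51). With PAM from day 2 Mcoln1 reached 1058, 1055 and 1354, a 2.25-fold difference (limma adjusted p = 0.000695).

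Lamp1, a heavily glycosylated protein of the lysosomal membrane, had untreated values of 10347, 13058, 12258 and 12752. PAM gave 15044, 17339 and 19009 from day 1 (log2 0.50, limma adjusted p = 0.0102) and 17237, 15761 and 21488 from day 2 (0.58, limma adjusted p = 0.00964), and indirect CAP from day 2 gave 16396, 14226 and 18150 (0.42, limma adjusted p = 0.0179). All 9 values were above the untreated range. The call over the 9 libraries from day 1 (0.36) was lost without the untreated libraries of CD1 and WT2 (0.31) or of CD1 alone (0.29), and that for indirect CAP from day 2 without its CD1 or 2-20 library (0.34 and 0.41 at the extremes). Lamp2, which also serves as the receptor of chaperone-mediated autophagy, stood at 2488, 2649, 2723 and 2470 untreated. It was higher with indirect CAP from day 2 (3494, 3718 and 3698, log2 0.49) and PAM from day 2 (3431, 3982 and 4115, 0.57), and no value of these groups fell into the untreated range.

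Of the pump subunits, Atp6v0d1, in the membrane sector, had untreated values of 1021, 1255, 1282 and 1440. The 9 libraries from day 1 held 1448 to 2302, all higher (log2 0.56, limma adjusted p = 0.00494), although the call was lost without the untreated libraries of CD1 and WT2 (0.43). The call for direct CAP for 24 h (0.59) was lost without any 1 library other than untreated 2-20 or treated WT2 (0.46 to 0.65), and with the block the gene was also higher with indirect CAP from day 1 (0.39). PAM from day 2 gave 2215, 2072 and 3204 (0.98, limma adjusted p = 0.00295). Atp6v1h, in the cytosolic sector, was higher with PAM from day 2, at 1750, 1531 and 2050 against 1166, 1230, 1383 and 1589 (0.40, limma adjusted p = 0.0457), and these values overlapped. The call was lost without the untreated CD1, WT2 or 1-20 or the treated CD1 or 2-20 library (0.30 to 0.42).

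The 8 lysosomal hydrolases had the highest median log2 fold change of the 7 role groups in the 5 groups other than direct CAP for 30 min. It was 0.71 with direct CAP for 24 h. For indirect CAP it was 0.54 from day 1 and 0.93 from day 2, and for PAM it was 0.75 and 1.03. Of the 8, 5 were called higher with direct CAP for 24 h and with indirect CAP from day 1, 6 with PAM from day 1, and 7 in both groups from day 2. None of the 8 was called lower. Of all genes, 7.05% were higher with direct CAP for 24 h, 10.2% with indirect CAP from day 1 and 15.2% with PAM from day 1. From day 2 the shares were 20.3% with indirect CAP and 18.5% with PAM. With indirect CAP from day 1, the calls of Ctsd, Ctsl and Neu1 were lost without the untreated WT2 or the treated 2-20 library (0.40 and 0.54, 1.31 and 1.39, and 0.54 and 0.71 on the log2 scale).

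Ctsl, a cysteine protease, changed most. Untreated, CD1 and WT2, at passage 12 and 14, held 433 and 548, and 1-20 and 2-20, both at passage 4, held 1170 and 963. Direct CAP for 24 h gave 2512, 2302 and 4247, PAM from day 1 gave 2887, 3587 and 3641, and indirect CAP from day 1 gave 1633, 1956 and 2736. All 9 lay above the untreated range, a 3.78-fold difference (log2 1.92, SE 0.27, limma adjusted p = 0.000339).

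From day 2 the difference of Ctsl was of like size, with 2059, 3044 and 3031 for indirect CAP (log2 1.89) and 2304, 2909 and 3432 for PAM (1.98). After direct CAP for 30 min it stood at 750, 897 and 1574, overlapping with untreated (log2 0.50, limma adjusted p = 0.433).

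Ctsb, the most abundant cysteine cathepsin per kilobase among the members, had untreated values of 7649, 9030, 9002 and 9726. The 9 libraries from day 1 held 12176 to 19089, all higher (log2 0.74, SE 0.11, limma adjusted p = 0.00045). From day 2 the values were 15952, 17142 and 21005 with indirect CAP (1.02) and 18951, 19354 and 22878 with PAM (1.20), with no overlap.

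Ctsd, the main aspartic protease of the lysosome, had untreated values of 7656, 9372, 9654 and 9863. The 9 libraries from day 1 held 11693 to 18791, above all of them (log2 0.78, SE 0.13, limma adjusted p = 0.000922). PAM from day 1, at 17622, 18154 and 18791, showed the highest fold change of the 6 groups (limma adjusted p = 0.000322). PAM from day 2 gave 15033, 13268 and 20295 (0.81).

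Neu1, the lysosomal sialidase, had untreated values of 1152, 1421, 1648 and 1728. The values rose to 2603, 2168 and 3595 with direct CAP for 24 h, 2140, 2148 and 3122 with indirect CAP from day 1 and 2746, 3104 and 3538 with PAM from day 1. These 9 did not overlap with untreated (log2 0.90, SE 0.16, limma adjusted p = 0.00119). From day 2 they were 3920, 3629 and 5651 with indirect CAP (1.55) and 3592, 3754 and 6703 with PAM (1.61). Ctsa, the protective protein that holds Neu1 stable, had untreated values of 2765, 2828, 2733 and 3159 and differed less.

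In Ctsa the 9 libraries from day 1 held 3068 to 5124, overlapping with untreated in 1 PAM library (log2 0.46, limma adjusted p = 0.00851). That call was lost without the untreated libraries of CD1 and WT2 (0.43). The calls for PAM from day 1 (0.54), indirect CAP from day 1 (0.42) and direct CAP for 24 h (0.43) were each lost when 1 untreated library was left out, WT2 or 1-20 in all 3 groups and CD1 in the first and the last (0.39 to 0.53, 0.35 to 0.42 and 0.41 to 0.43). They were lost likewise without the treated WT2 or 2-20 library of the indirect CAP and PAM groups, and that for direct CAP also with the block (0.41). From day 2 the values were 4444, 4366 and 6025 with indirect CAP (0.77) and 4854, 4478 and 6550 with PAM (0.87), with no overlap.

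Ctsh, an aminopeptidase, stood apart by its spread. Untreated values were 1307, 2287, 2454 and 2553, while indirect CAP from day 2 gave 7933, 3209 and 6748 (log2 1.42, limma adjusted p = 0.00996) and PAM from day 2 gave 6358, 4091 and 15179 (1.82, SE 0.43, limma adjusted p = 0.00929). The lines kept no common order between these groups, since CD1 was highest in the first and 2-20 in the second. PAM from day 1 gave 3310, 3467 and 2941 (0.64), a call lost with the block (0.71) and without any 1 library other than untreated CD1 or 2-20 (0.58 to 0.71). Over the 9 libraries from day 1 the difference of 0.42 was not called (limma adjusted p = 0.125).

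Gla, which cleaves galactose from glycolipids, stood at 346, 426, 469 and 624 untreated and was higher from day 2, at 689, 789 and 1006 with indirect CAP (log2 0.84, limma adjusted p = 0.0109) and 747, 783 and 684 with PAM (0.69, limma adjusted p = 0.0176). All 6 were above the untreated range, and the call for PAM was lost without its WT2 library (0.65). Hexa, a beta-hexosaminidase subunit, was called in no group. Its untreated values of 1356, 1064, 404 and 751 spanned more than the means of the treated groups, at 924 to 1350. The lower ones, 404 and 751, came from the lines at passage 4. Over the 9 libraries from day 1 the difference was 0.59 (limma adjusted p = 0.089), but 1.15 and called without the untreated libraries of CD1 and WT2, and 0.83 and called without that of CD1 alone.

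**Figure D3:**
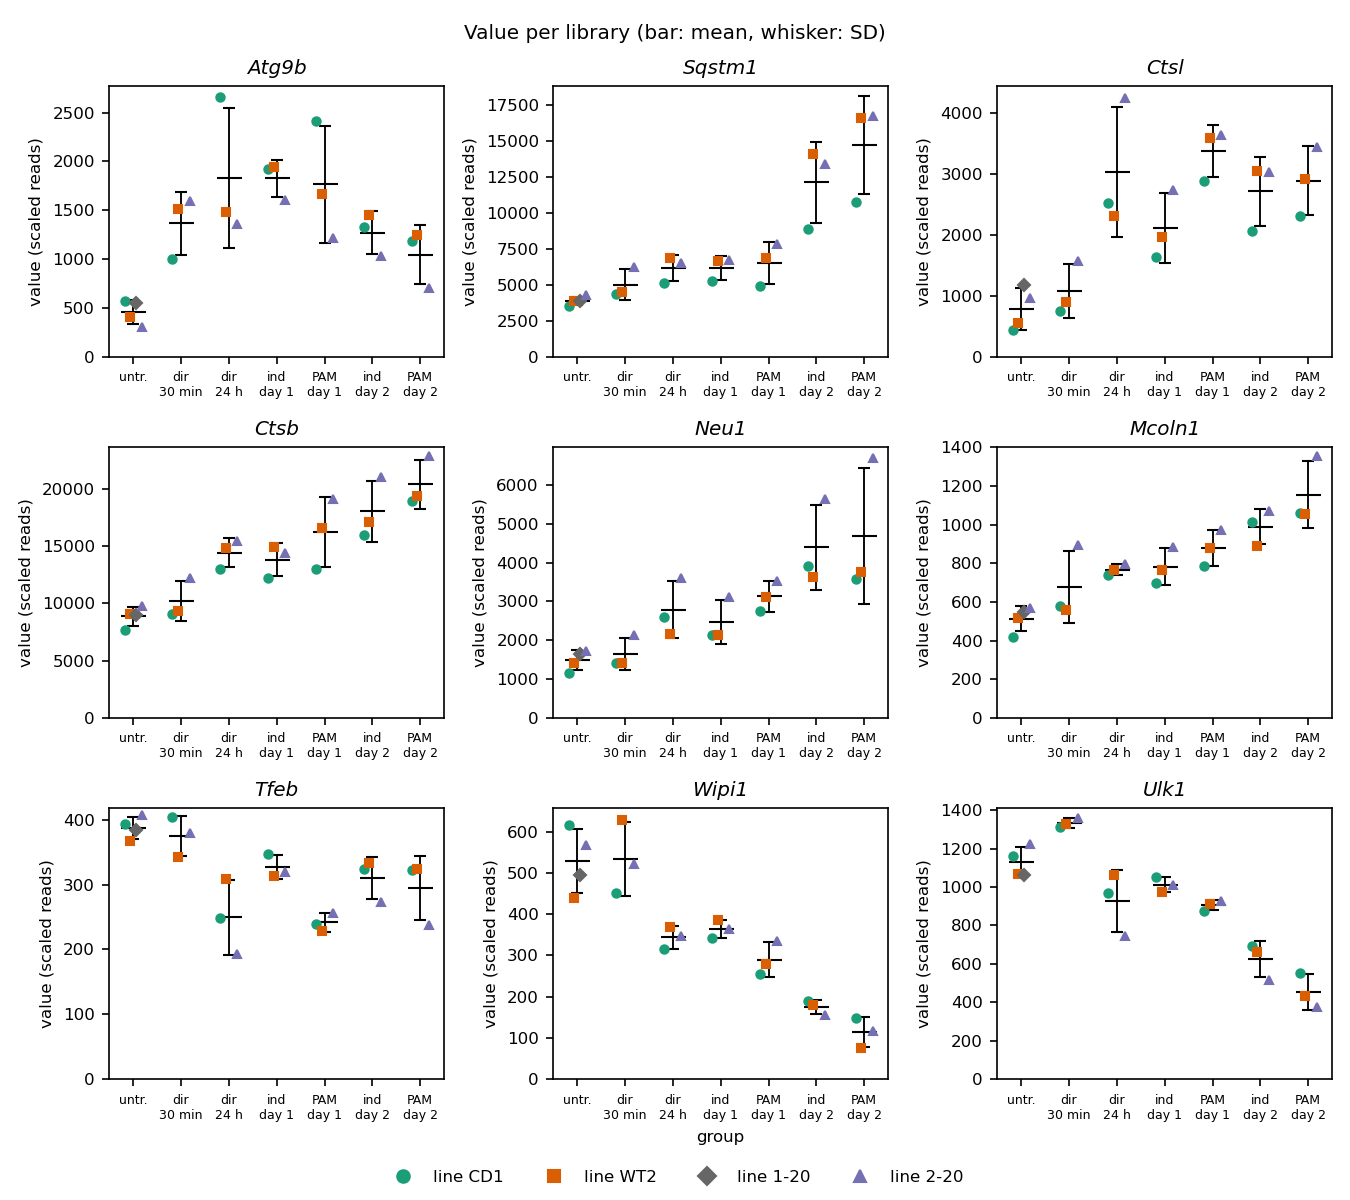
Value in each library for 9 of the genes, by group (4 untreated libraries, 3 in each treated group), with the organoid line as the symbol, a bar for the mean and whiskers for the SD. Sqstm1 stands at 8910 or more in the groups from day 2 and at 7814 or less elsewhere, Atg9b is at 997 to 1593 with direct CAP for 30 min, and Wipi1 and Ulk1 are lowest with PAM from day 2, at 75 to 148 and 373 to 553.

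Of the 29 genes with a promoter window, those with TCACGTGA were called higher over the 9 libraries from day 1 in 4 of 6 cases, and those without it in 7 of 23. Of all genes, 14.8% were higher there. From day 2 the counts were 5 of 6 and 9 of 23, both with indirect CAP and with PAM, where 20.3% and 18.5% of all genes were higher. The one of the 6 called in no group was Atg3. Atg9b and Sqstm1, without the E-box in the windows printed above, were among the genes called higher in all 5 groups. Whether these letters bear on the calls was not tested.

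Direct comparisons between treated groups set durations and starts of exposure side by side. For indirect CAP and PAM, the start, the time in fresh medium before the endpoint and the age of the medium cannot be told apart. For direct CAP, the length of exposure cannot be told apart from the time in fresh medium. When the libraries of direct CAP for 30 min were collected is also not clear. Direct CAP for 24 h against 30 min gave no call by limma, among the 36 or over all genes (0 higher, 0 lower). An unadjusted p under 0.05 was found for 14 of the 36 and for 3774 of all 17668 genes tested. The shared fit of all 7 groups called 4 of the 36, against 4.47% of all genes in either direction. With organoid line as a block 6 were higher and 2 lower, against 3.55% and 4.59% of all genes. Ulk1 and Wipi1 were lower with direct CAP for 24 h (log2 −0.54 and −0.62). Atp6v0d1, Ctsd, Ctsh, Ctsl, Hexa and Neu1 were higher (0.48, 0.59, 0.67, 1.51, 0.57 and 0.76).

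Indirect CAP from day 2 against day 1 gave 1 higher and 2 lower of the 36, against 1.16% and 2.21% of all genes. Lamp2 was higher, at 3494, 3718 and 3698 against 2468, 2806 and 2657 (log2 0.46, SE 0.08, limma adjusted p = 0.0359). Ulk1 was lower, at 695, 660 and 517 against 1052, 973 and 1009 (−0.71, SE 0.13, limma adjusted p = 0.0378), and so was Wipi1, at 190, 180 and 156 against 343, 386 and 363 (−1.05, SE 0.12, limma adjusted p = 0.0193). In none of the 3 did the groups overlap. The count was 0 without the CD1 or the WT2 library from day 1, and 0 without the WT2 or the 2-20 library from day 2. The differences without 1 library were 0.41 to 0.51 for Lamp2, −0.79 to −0.58 for Ulk1 and, where its call was lost, −1.09 to −0.97 for Wipi1.

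With organoid line as a block, 13 of the 36 were higher and 3 lower in this comparison, against 9.27% and 14.3% of all genes in that fit. Tfe3, Atg12, Map1lc3a, Sqstm1, Mcoln1, Atp6v0d1, Ctsa, Ctsb, Ctsh, Ctsl, Gla and Neu1 were then also higher from day 2, and Atg9b lower. Within lines, the log2 difference of Sqstm1 between the 2 starts was 0.77 to 1.08, that of Neu1 0.76 to 0.87 and that of Ctsh 0.74 to 1.91, higher in 3 of 3 lines for each. Atg9b was lower by 0.42 to 0.64 in 3 of 3 lines.

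PAM from day 2 against day 1 gave no call by limma, again among the 36 and over all genes (0 higher, 0 lower). An unadjusted p under 0.05 was found for 10 of the 36 and for 4651 of all 17354 genes tested. The block gave 5 calls, Atg12 and Sqstm1 higher and Ulk1, Wipi1 and Atg9b lower, against 3.61% higher and 6.99% lower of all genes. The shared fit of all 7 groups called 7 of the 36 (21.9% of all genes), and leaving out the CD1 library of PAM from day 2 gave 3, Ulk1, Wipi1 and Sqstm1 (5.35% of all genes). Sqstm1 differed by 1.17 on the log2 scale (limma adjusted p = 0.0607), Wipi1 by −1.39 (limma adjusted p = 0.0594) and Ulk1 by −1.01 (limma adjusted p = 0.0511), and none of these 3 overlapped between the groups. Within lines the differences were 1.10 to 1.27 for Sqstm1, −1.89 to −0.78 for Wipi1 and −1.31 to −0.66 for Ulk1.

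**Figure D4:**
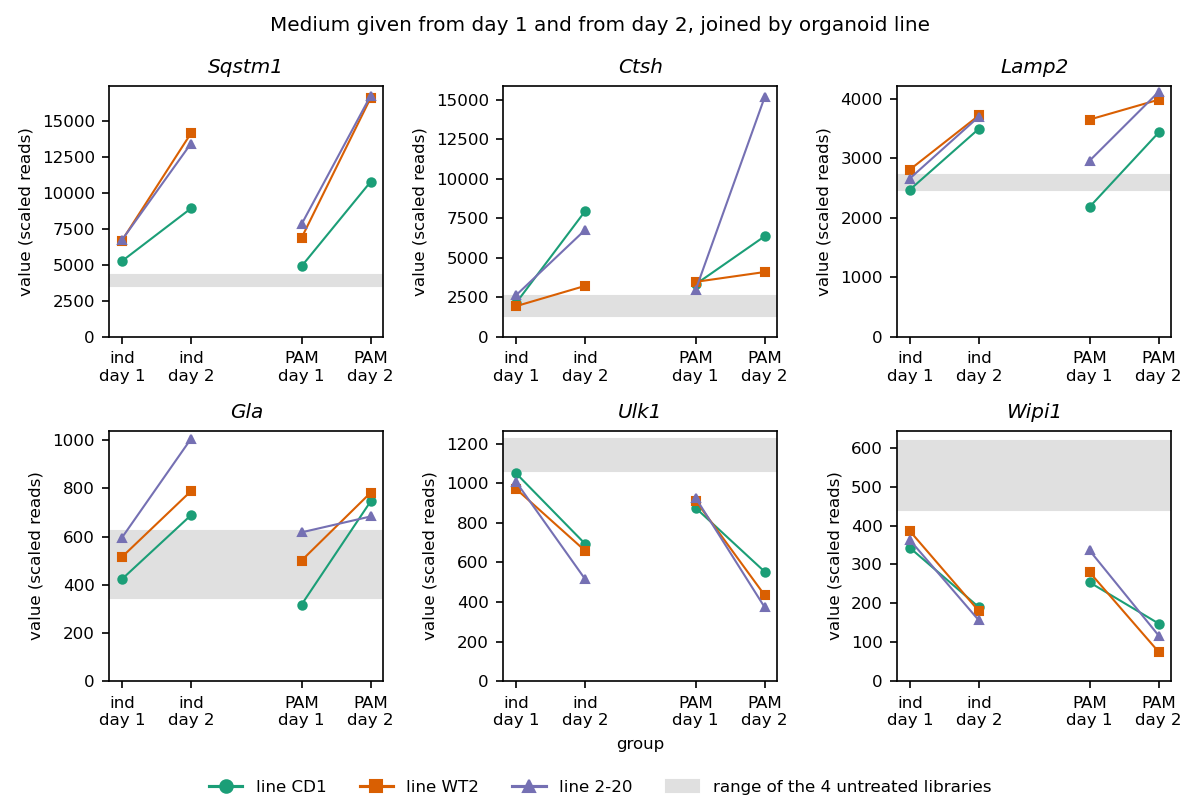
Values of 6 genes with indirect CAP and PAM from day 1 and from day 2 (3 libraries each), joined by organoid line, over a grey band for the range of 4 untreated libraries. Sqstm1 is higher and Ulk1 and Wipi1 are lower from day 2 in 3 of 3 lines with either medium, while Ctsh ranges from 3209 to 7933 with indirect CAP and from 4091 to 15179 with PAM.

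PAM from day 1 and direct CAP for 24 h, both with exposure from day 1, were compared to set these ways of application side by side. With direct CAP the organoids received the plasma themselves, and with PAM they received medium treated with no organoids present. The presence of organoids during treatment and their own exposure to the plasma cannot be told apart here. Limma called none of the 36, where 0.0117% of all genes were higher and 0.246% lower. An unadjusted p under 0.05 was found for Atg2a only among the 36, and for 1773 of all 17072 genes tested. The block called none of the 36 either (1.31% of all genes higher and 1.59% lower). The differences were 0.06 for Sqstm1 (95% interval −0.40 to 0.53), 0.21 for Ctsl (−0.34 to 0.75), −0.04 for Atg9b (−0.78 to 0.69) and −0.25 for Wipi1 (−0.62 to 0.11). These intervals are wide and do not show that the media act alike.

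A wider set of 131 genes of the same pathway, also chosen with earlier results of these data known, was read in the same way. Of these, 1, Castor1, was not found by that symbol. Over the 9 libraries from day 1, 41 of 130 were higher and 12 lower, again beside 14.8% and 18.7% of all genes. The wider autophagy machinery split evenly, with 5 higher and 6 lower of 36 and a median log2 fold change of −0.03. Of 27 lysosomal membrane and pump genes, 14 were higher and 1 lower (median 0.36), and of 41 hydrolases and sorting factors 16 were higher and 2 lower (median 0.27). Nutrient sensing at the lysosome had 6 higher and 3 lower of 26 (median 0.07).

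The strongest rise of a pump gene in this set was that of Atp6v0a1, a membrane subunit, from a mean of 1681 to 4204 (log2 1.28, limma adjusted p = 0.000608). Atp6v1a, the catalytic subunit, rose from 1744 to 2737 (0.64, limma adjusted p = 0.000722). Among hydrolases Lipa, the acid lipase, rose from 1204 to 2052 (0.78, limma adjusted p = 0.000388) and Manba, a mannosidase, from 288 to 503 (0.80, limma adjusted p = 0.00105). The sorting factors Sort1, a receptor for hydrolases in the Golgi, and Gnptab, which builds their mannose 6-phosphate tag, fell (−0.35 and −0.28, limma adjusted p = 0.00214 and 0.0154). From day 2 Sort1 differed by −0.69 with indirect CAP and by −1.10 with PAM.

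The sestrins, which restrain the mTORC1 kinase, were called in both directions. Sesn2 rose from a mean of 740 to 1546 (log2 1.05, limma adjusted p = 9.32e-05), whereas Sesn3 fell from 2215 to 913 (−1.28, limma adjusted p = 2.05e-05) and Sesn1 from 726 to 454 (−0.70, limma adjusted p = 0.00378). Prkaa2, a catalytic subunit of the energy sensor AMPK, rose from 1431 to 2470 (0.77, limma adjusted p = 0.000625). Of the wider autophagy machinery, Vmp1, a scramblase of the endoplasmic reticulum, rose from 3558 to 4774 (0.43, limma adjusted p = 0.00222) and Pik3c3, the lipid kinase that marks the phagophore, fell from 1093 to 908 (−0.27, limma adjusted p = 0.0222).

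From day 2 the wider set held 48 higher and 13 lower of 129 with indirect CAP, and 40 higher and 20 lower of 128 with PAM, beside 20.3% and 23.5%, and 18.5% and 29.1%, of all genes. The membrane and pump genes again had 14 higher in each, of 27, with 1 and 2 lower. Hydrolases and sorting factors had 14 higher and 3 lower of 40 with indirect CAP (median 0.14) and 13 higher and 8 lower of 40 with PAM (median 0.07), below the medians of the 8 hydrolases among the 36 genes. The wider autophagy machinery had 10 higher and 6 lower of 36 with indirect CAP and 7 and 7 of 35 with PAM.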

How the data were processed

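Per the labels and the study's methods, RNA of mouse duodenal organoids was sequenced as paired reads. The submitters' processing notes name Trimmomatic 0.36, STAR 2.5.3a and HTSeq 0.9.1, and the genome GRCm38. The authors deposited 1 table of 22 libraries whose whole-number values sum to a median of 20011472 per library. These are treated as a score, since the authors scaled and rounded read counts and no raw count is kept; the study's name for the unit, counts per kilobase, does not match the values, which are not divided by length. A count model was therefore not used. Values + 1 were taken to log2 and tested with limma 3.58.1 (R 4.3.3, trended moderated test), with genes of at least 10 in at least 3 libraries. P-values were adjusted by Benjamini-Hochberg over all genes of a comparison, and called means an adjusted p under 0.05. Fold changes are on the log2(value + 1) scale. Tables and figures used Python 3.11.15, pandas 2.3.3, numpy 2.4.6 and matplotlib 3.10.9. The fits were also run on simulated data, in which libraries were drawn independently and without an effect of organoid line. That run therefore cannot show how the fits behave with libraries paired by line.

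Each comparison was fitted on its own libraries. Alternatives were 1 fit of all 7 groups, no filter, a pseudocount of 10, quantile normalization, organoid line as a replicate block, the study's limit, leaving out each library, and leaving out the untreated libraries of CD1 and WT2. Line names come from the labels, by which libraries of a line share a mouse. The values bear this pairing out for treated libraries and for untreated 2-20, but not for the untreated libraries labelled CD1 and WT2. No replicate pair agreed within sampling noise. The libraries of a group come from separate mice per the labels.

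The 36 genes and the wider lists were chosen with earlier results of these data known. All 36 are named. Values per library are given for 4 genes chosen by name (Tfeb, Sqstm1, Map1lc3b and Lamp1), for the called members of the main comparison, and for members called elsewhere. Of each wider list, up to 2 of the strongest rises and 2 of the strongest falls whose groups did not overlap are named.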

Additional observations from a re-analysis of the deposited data

Results flagged for a closer look

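The effect of indirect CAP differed between its starts for 3 of the 36 genes, by limma's test of day 2 against day 1. The starts also differ in the time in fresh medium before the endpoint and in the age of the medium. Wipi1 differed by −1.05, Ulk1 by −0.71 and Lamp2 by 0.46 on the log2 scale. Each of these calls was lost when 1 of several libraries was left out, as given above. No member had an untreated library whose gap to the nearest other passed Dixon's critical value.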

How the results depend on the processing

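Counts of called members are given as higher and lower together. None of the 101 calls over the 11 comparisons changed sign under any alternative, and 48 were made under every one. At the study's limit the counts were 2 over the 9 libraries from day 1, 2 for direct CAP for 24 h, 1 and 7 for indirect CAP from day 1 and day 2, 3 and 9 for PAM from day 1 and day 2, and 0 for indirect CAP from day 2 against day 1. Of all genes, 6.34% passed it over the 9 libraries from day 1. With direct CAP for 24 h, 217 higher and 159 lower of 17335 genes passed. With indirect CAP it was 148 and 85 of 17818 from day 1, and 1108 and 1019 of 17860 from day 2. With PAM it was 838 and 937 of 17357 from day 1, and 1206 and 1857 of 17694 from day 2. Indirect CAP from day 2 against day 1 had 2 and 0 of 17987. Without the untreated libraries of CD1 and WT2 the counts of called members were 9, 1, 1, 15, 12 and 14, in the order of the first 6 counts of members above. The share of all genes beside the 15 is not given. With all 7 groups in 1 fit, 1 was called for direct CAP for 30 min, 4 for 24 h against 30 min and 7 for PAM from day 2 against day 1. With organoid line as a replicate block the counts were 8 for direct CAP for 24 h against 30 min, 16 for indirect CAP from day 2 against day 1 and 5 for PAM from day 2 against day 1, and no other count moved by more than 1.5 times. PAM from day 2 against day 1 gave 1 call under quantile normalization and 1 with a pseudocount of 10, and indirect CAP from day 2 against day 1 gave 1 without the filter. Leaving out 1 library at a time gave 12 to 17 over the 9 libraries from day 1, 0 to 0 for direct CAP for 30 min, 7 to 12 for direct CAP for 24 h, 3 to 11 and 16 to 19 for indirect CAP from day 1 and day 2, 15 to 20 and 19 to 21 for PAM from day 1 and day 2, 0 to 0 for 24 h against 30 min, 0 to 2 and 0 to 3 for day 2 against day 1 with indirect CAP and PAM, and 0 to 0 for PAM against direct CAP. Under these alternatives 289 values of single genes kept their side of the threshold and 34 did not, and the cause was not tested. Leaving out the untreated libraries of CD1 and WT2 also lowers the untreated group from 4 libraries to 2. It leaves only those at passage 4, from female mice by the paper's list. The doubt about labels, the group size, the passage and the sex cannot be told apart here.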
